A study of Mus musculus with 9 samples.

Results

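The genes described here are Sirpa, Sirpb1a, Sirpb1b, Sirpb1c and Cd47, which encode the signal-regulatory proteins (SIRP) of mouse myeloid cells and the surface protein that the inhibitory member recognises. They were taken by symbol and are 5 of the 55274 gene identifiers measured. Sirpb1b and Sirpb1c were chosen by measured values, their higher FPKM in NUP98-NSD1+NRASG12D cells, so these values are given below as a description with no test. The other genes entered by name. RNA-seq had been done on 9 libraries of cultured mouse bone marrow cells, 3 each from cells given NRASG12D, NUP98-NSD1 or both, and the comparisons ask what each oncogene adds to the expression of these receptors.

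All groups came from marrow of C57BL/6J mice, described in the methods as females of 6 to 8 weeks. Donors had received 5-fluorouracil at 150 mg/kg, and marrow was taken 4 days later. It was stimulated for 48 h in medium with 15% fetal bovine serum, human IL-6 at 10 ng/mL, murine IL-3 at 6 ng/mL and murine SCF at 20 ng/mL. NRASG12D, an NRAS protein locked in its active form, was delivered by an MSCV retroviral vector that also expresses BFP. NUP98-NSD1, a fusion of a nuclear pore protein with a histone methyltransferase, was delivered by an MSCV vector with GFP. NUP98-NSD1+NRASG12D cells carried both and are called double-transduced cells below. Expression was thus driven by a viral promoter and not by the genes' own, and no group without an oncogene was profiled. Transduced cells were sorted on their fluorochromes and expanded. Marker genes of mast cells and other myeloid cells differed widely between the cultures (below), so a comparison with NRASG12D cells is also one between cultures of different makeup. Nothing in the labels says that replicates were separate cultures or animals, and p-values therefore measure the spread between libraries, which may be technical.

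SIRPα, the product of Sirpa, is an inhibitory receptor of macrophages, neutrophils and dendritic cells. When it binds CD47 on another cell, tyrosines in its cytoplasmic ITIM motifs are phosphorylated and recruit the phosphatases SHP-1 and SHP-2, which restrains phagocytosis. CD47 is present on most cells and is known as a "don't eat me" signal, also on leukemic cells. The SIRPβ1 receptors have a related extracellular part but a short cytoplasmic tail without ITIMs, and signal through the adaptor DAP12, the product of Tyrobp, and the kinase SYK.

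Sirpa (ENSMUSG00000037902.18) lies on chromosome 2 (GRCm38 chr2:129592835-129632228, plus strand) and Cd47 (ENSMUSG00000055447.19) on chromosome 16 (chr16:49800533-49915010, plus strand). The Sirpb1 genes form a cluster on the minus strand of chromosome 3, with Sirpb1a (ENSMUSG00000095788.6) at chr3:15371653-15426520, Sirpb1b (ENSMUSG00000095028.6) at chr3:15495751-15575065 and Sirpb1c (ENSMUSG00000074677.11) at chr3:15795145-15848528. The SIRPβ1-like genes Gm9733 (chr3:15296551-15332302) and Gm5150 (chr3:15946870-16006437) flank them on either side. The longest coding sequences of Sirpb1a, Sirpb1b and Sirpb1c have 1194 bases each, and that of Sirpa 1542. Sirpb1b and Sirpb1c were identical at 98.3% of coding bases, Sirpb1a and Sirpb1c at 97.4%, and Sirpb1a and Sirpb1b at 97.5%. Sirpa matched them at 71.1% to 71.6% of the bases aligned. By the same alignment Cd47 matched Sirpa at 66.7% and the Sirpb1 genes at 63.2% to 64.2%. In all, 40 coding positions differed among the Sirpb1 genes, and the longest run with no difference spanned 140 bases. Since reads were 50 bases long, the stretch with most differences is shown because it is where a read can tell these genes apart. It covers coding bases 196 to 295 in a single exon, at chr3:15416972-15417071, chr3:15548726-15548825 and chr3:15838744-15838843 on the minus strand (GRCm38). Capitals mark the 12 positions that are not the same in all 3 genes.
Sirpb1a: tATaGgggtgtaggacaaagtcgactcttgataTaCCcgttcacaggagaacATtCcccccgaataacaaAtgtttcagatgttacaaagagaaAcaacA
Sirpb1b: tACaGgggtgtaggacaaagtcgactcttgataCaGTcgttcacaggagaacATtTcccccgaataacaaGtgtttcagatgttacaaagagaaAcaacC
Sirpb1c: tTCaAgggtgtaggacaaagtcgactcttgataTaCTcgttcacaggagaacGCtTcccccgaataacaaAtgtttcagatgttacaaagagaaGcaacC

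Over this stretch Sirpb1a differed from Sirpb1b at 7 positions and from Sirpb1c at 9, and Sirpb1b from Sirpb1c at 8. Elsewhere the genes were harder to separate. Of all 50-base stretches in the annotated transcripts, 58.0% of those of Sirpb1b, 51.9% of those of Sirpb1c and 40.4% of those of Sirpb1a also occurred in another gene, against 0.722% for Cd47 and 0% for Sirpa, Gm5150 and Gm9733. How fragments that align to several genes were assigned is not given in the sources used here, so the split of expression among the Sirpb1 genes is uncertain. Their summed expression depends less on it.

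**Figure D1:**
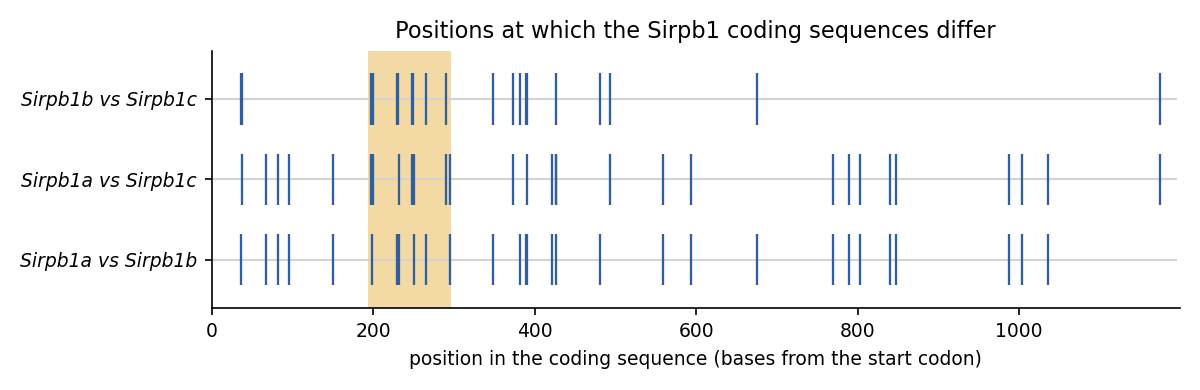
Positions in the coding sequence (bases from the start codon) at which each pair of Sirpb1 genes differs, 1 vertical line per position. The shaded window, bases 196 to 295, holds 12 of the 40 positions that differ among the genes, and the longest run without any spans 140 bases.

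The sequence before the start of these genes was also nearly shared. The 150 bases that end just upstream of each annotated gene are shown because the Sirpb1 genes were expressed together (GRCm38.p6, RefSeq windows, minus strand, at chr3:15426521-15426670, chr3:15575066-15575215 and chr3:15848529-15848678). Capitals mark the 9 positions that are not the same in all 3 genes.
Sirpb1a: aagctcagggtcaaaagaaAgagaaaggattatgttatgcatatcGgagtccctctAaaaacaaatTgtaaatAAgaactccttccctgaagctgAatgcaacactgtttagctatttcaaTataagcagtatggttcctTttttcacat
Sirpb1b: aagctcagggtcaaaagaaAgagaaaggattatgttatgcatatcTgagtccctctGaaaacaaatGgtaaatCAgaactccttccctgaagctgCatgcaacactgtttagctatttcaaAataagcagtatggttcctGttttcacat
Sirpb1c: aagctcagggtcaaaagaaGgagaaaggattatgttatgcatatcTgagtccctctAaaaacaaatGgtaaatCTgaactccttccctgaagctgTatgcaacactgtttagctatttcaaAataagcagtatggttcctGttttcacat

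Sirpb1a differed from Sirpb1b at 7 of these bases and Sirpb1c from Sirpb1b at 4. Over the 300-base windows around the RefSeq starts, the Sirpb1 genes had a GC content of 38.0% to 39.0%, below the 10th percentile of all 32544 windows, whose median was 53.0%. The Cd47 windows had 74.0% and 74.3%, above the 90th percentile of 69.7%. The letters GGAAGT, the core of many ETS-factor sites, were searched on both strands after the sequences had been seen. They occurred once in each Sirpb1 window and in that of Gm5150, and not in those of Cd47, while 23.7% of all windows hold them. The Sirpb1 and Gm5150 windows are near copies (87.2% to 98.1% identity over aligned bases), so these occurrences are not independent. In the Sirpb1 genes the letters lay downstream of the stretch shown. Sirpa and Gm9733 were not among the matched windows.

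Expression is given as FPKM, fragment counts scaled for transcript length and library size, which allows levels of different genes to be set side by side. From the steps between low values, the libraries were estimated to hold 23600000 to 37200000 fragments, and NRASG12D replicate 2 was the deepest. In what follows, 3 ranges in a row are for NRASG12D, NUP98-NSD1 and double-transduced libraries. The labels were checked by Nras, at 348 to 479, 47.7 to 51.2 and 245 to 701 FPKM, which was high in both groups given NRASG12D. Nup98 was 9.12 to 11.1, 18.2 to 19.0 and 11.9 to 20.2 FPKM, with every library given the fusion above those without it. Every NUP98-NSD1 library was above every NRASG12D library in 50.7% of all tested genes, and every double-transduced library in 38.7%. Nsd1 overlapped between all groups. The makeup of the cultures differed. The summed FPKM of 10 mast cell markers was 33138 to 35423, 15833 to 19821 and 1302 to 3321. Hdc and Mcpt4 of this list went against the sum with NUP98-NSD1. Hdc was 1.60 to 8.72 FPKM in NRASG12D and 51.8 to 169 in NUP98-NSD1 libraries, and Mcpt4 33.2 to 101 and 415 to 491. The summed FPKM of 11 neutrophil markers was 29.8 to 36.9, 1729 to 6130 and 8881 to 19517, with S100a9, Ltf, Camp, Ngp and Cxcr2 under 1 FPKM in every NRASG12D library. Not all neutrophil markers followed their sum. Ly6g was 2.45 to 3.24 FPKM in NRASG12D and 2.10 to 3.67 in NUP98-NSD1 libraries. Mpo was 131 FPKM in double-transduced replicate 3, under every NUP98-NSD1 library (463 to 2554). Elane, Prtn3 and Ctsg overlapped between NUP98-NSD1 and double-transduced libraries, and Ctsg was already at least 21.5 FPKM in every NRASG12D library. The summed FPKM of 10 monocyte and macrophage markers was 66.0 to 71.8, 521 to 967 and 1850 to 4696. Of these, Cd14, Mrc1 and Fcgr1 were under 1 FPKM in every NRASG12D library. Not all of the latter list followed its sum: Cx3cr1 was 11.1 to 21.4 FPKM in NRASG12D and 2.36 to 4.36 in double-transduced libraries, and Adgre1 and Cd68 were already 15.7 to 34.4 FPKM in NRASG12D libraries. These sums move with the SIRP genes below, and their part in the differences was not tested. In bulk RNA, fewer cells of a type and less RNA per cell cannot be told apart.

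Sirpa, the inhibitory receptor, was expressed in every library. It was 13.2, 19.9 and 11.2 FPKM in NRASG12D replicates 1 to 3 (14.7 ± 4.56, SD, n = 3), and 64.1, 46.0 and 40.5 FPKM in NUP98-NSD1 cells (50.2 ± 12.3, SD, n = 3). In double-transduced cells it was 112, 285 and 199 FPKM (199 ± 86.1, SD, n = 3). The groups did not overlap in any comparison, and double-transduced replicate 2 was the highest library. Of all tested genes, 50.7% had every NUP98-NSD1 library above every NRASG12D library. Every double-transduced library was above every NRASG12D library in 38.7% and above every NUP98-NSD1 library in 11.6%. Sirpa was 3.41-fold higher on the ratio of means in NUP98-NSD1 than in NRASG12D cells, a difference of 1.71 in mean log2(FPKM + 1) (SE 0.24, limma adjusted p = 0.00190). In double-transduced against NRASG12D cells it rose by 3.61 (SE 0.36, limma adjusted p = 0.000523), with all 3 libraries above all 3. Against NUP98-NSD1 cells it rose by 1.89 (SE 0.35, limma adjusted p = 0.0250), a ratio of means of 3.96. That last call was lost in 4 of 6 fits that left out a library: without NUP98-NSD1 replicate 1 (adjusted p = 0.0561), 2 (0.0987) or 3 (0.105), or double-transduced replicate 3 (0.0848).

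**Figure D2:**
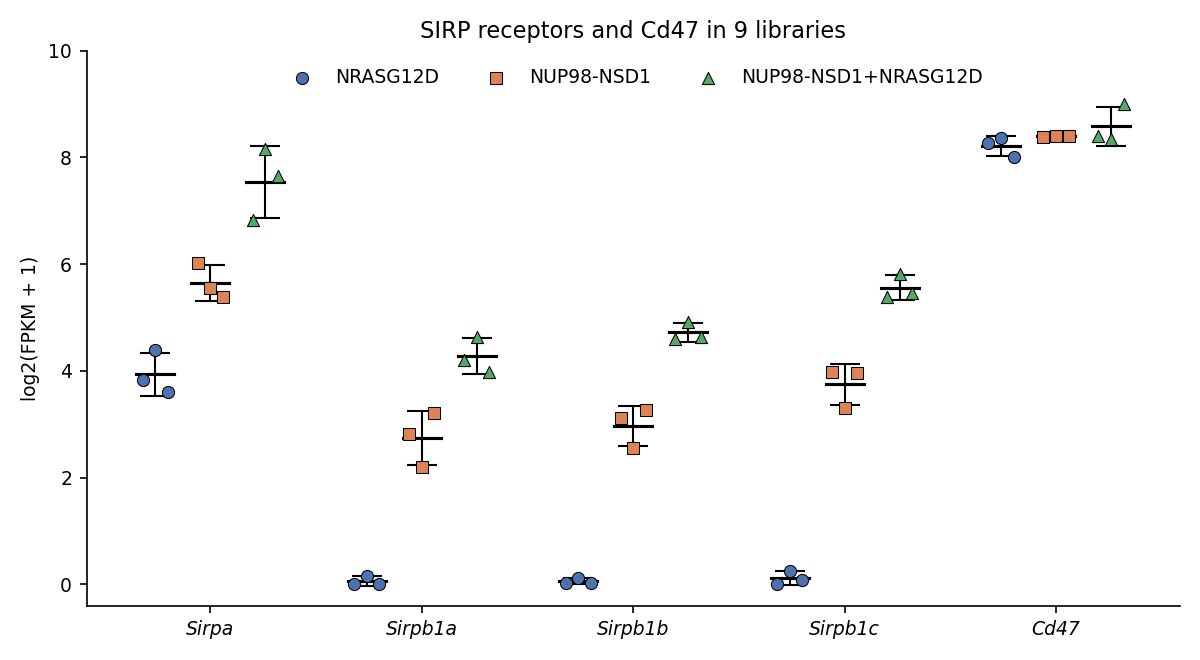
Expression of the SIRP genes and Cd47 as log2(FPKM + 1) in the 9 libraries; points are libraries, thick bars are means and whiskers are SD (n = 3 per group). Sirpa and the Sirpb1 genes step up from NRASG12D to NUP98-NSD1 to double-transduced libraries without overlap, and Cd47 stays between 256 and 512 FPKM in all. The first step was free of overlap in 50.7% and the second in 11.6% of all tested genes.

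The Sirpb1 genes, which encode the activating receptors, were near the limit of detection in NRASG12D cells. Sirpb1a was listed at 0 FPKM in replicates 1 and 3 and at 0.121 in replicate 2. Sirpb1b was 0.0168, 0.0907 and 0.0180 FPKM, and Sirpb1c 0, 0.194 and 0.0613 FPKM. At these depths 3 fragments, taken as the smallest countable level, give 0.0342 to 0.0717 FPKM for these genes. Of the Sirpb1 values, those of replicate 1 were under that level, those of replicate 2, the deepest library, were above it, and in replicate 3 Sirpb1c was just above it. Because of these low values the fold over NRASG12D cells is not given as a ratio, and differences on the log2(FPKM + 1) scale understate it.

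In NUP98-NSD1 cells Sirpb1a was 6.00, 3.58 and 8.31 FPKM (5.97 ± 2.36, SD, n = 3). Sirpb1b was 7.66, 4.86 and 8.59 FPKM (7.04 ± 1.94), and Sirpb1c 14.8, 8.90 and 14.5 FPKM (12.7 ± 3.30). Replicate 2 was the lowest library for each of them, and every NUP98-NSD1 library was above every NRASG12D library. The differences from NRASG12D cells were 2.69 for Sirpb1a (SE 0.25), 2.92 for Sirpb1b (SE 0.20) and 3.63 for Sirpb1c (SE 0.20). The 3 Sirpb1 genes passed the filter of 1 FPKM in at least 3 libraries only through cells that carry NUP98-NSD1. They could enter the test only by being higher there, so these differences are a description and no p is given. Of the genes expressed in all groups, Sirpa was called higher and Cd47 was not, in a comparison in which 42.2% of the 13493 tested genes were called higher, 9.98% lower and 52.1% in either direction. Of all tested genes, 50.7% had every NUP98-NSD1 library above every NRASG12D library. The median difference over all tested genes was 0.27.

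In double-transduced cells Sirpb1a was 17.4, 23.9 and 14.7 FPKM (18.7 ± 4.72, SD, n = 3). Sirpb1b, one of the genes picked for this group, was 23.3, 29.3 and 23.99 FPKM (25.5 ± 3.25), and Sirpb1c, the other, was 41.0, 55.6 and 42.8 FPKM (46.5 ± 7.94). Replicate 2 was the highest library for all of them, and every library was above every library of the other groups. Of all tested genes, 11.6% had every double-transduced library above every NUP98-NSD1 library. Over NRASG12D cells, Sirpb1a was higher by 4.22 (SE 0.21), Sirpb1b by 4.66 and Sirpb1c by 5.44, again with no test, since the filter fixed the direction and the last genes were picked on these values. Sirpa was called higher and Cd47 was not, beside 24.2% of all tested genes called higher, 14.1% lower and 38.3% in either direction, and 38.7% with every double-transduced library above every NRASG12D library. The median difference over all tested genes was 0.23.

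The comparison of double-transduced with NUP98-NSD1 cells leaves out the NRASG12D cultures. Sirpb1a rose by 1.53 (SE 0.30, limma adjusted p = 0.0296), a ratio of means of 3.13. Sirpb1b was higher by 1.75 and Sirpb1c by 1.81, with ratios of means of 3.63 and 3.65, again as a description. Few genes were called in this comparison, 2.3% of those tested as higher, 6.31% as lower and 8.61% in either direction, beside 2 of the 3 SIRP genes and Cd47 that were tested. The median difference over all tested genes was -0.06. The call of Sirpb1a was lost in 5 of 6 fits without a library, those without NUP98-NSD1 replicate 1, 2 or 3 and those without double-transduced replicate 2 or 3 (adjusted p between 0.0518 and 0.0901). Since Sirpb1a shares sequence with the picked genes, its test is also not independent of the values that picked them.

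**Figure D3:**
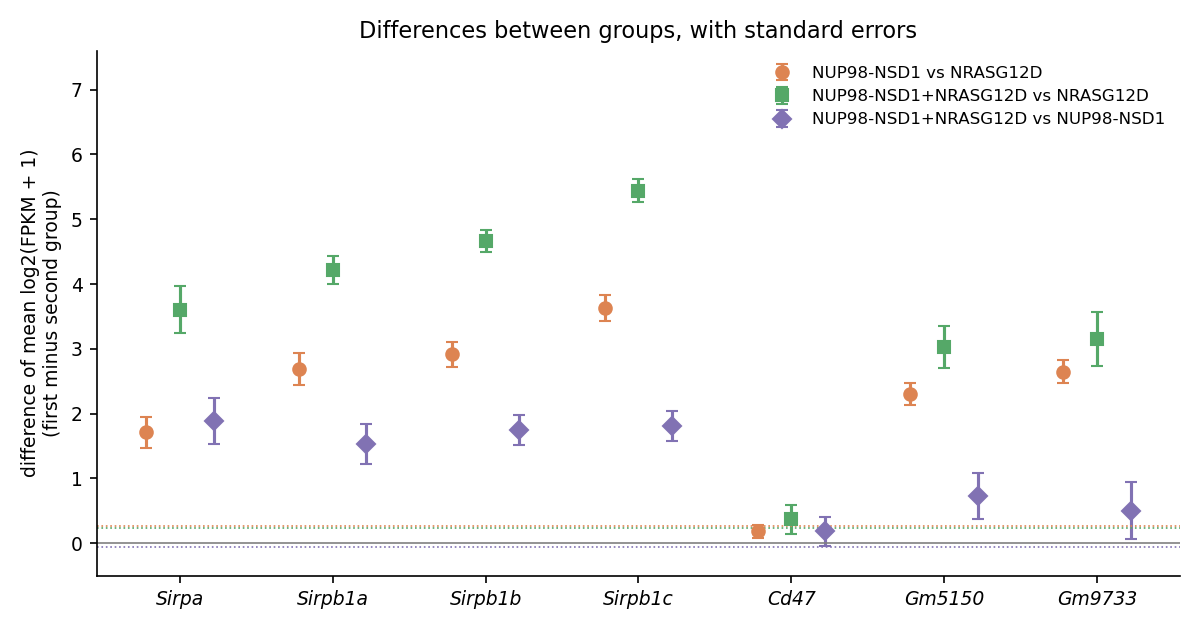
Differences of mean log2(FPKM + 1) for the SIRP genes, Cd47 and the SIRPβ1-like genes Gm5150 and Gm9733, with standard errors from limma (n = 3 per group). Dotted lines mark the median difference of all tested genes in each comparison (0.27, 0.23 and -0.06); Cd47 sits near these lines and the other genes above them.

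The summed FPKM of Sirpb1a, Sirpb1b and Sirpb1c, which depends less on how shared fragments were divided, was 0.0168 to 0.406 in NRASG12D libraries. With NUP98-NSD1 it was 17.3 to 31.4 (25.7 ± 7.40, SD, n = 3), and in double-transduced cells 81.6 to 108.7 (90.6 ± 15.6, SD, n = 3). The make-up of the sum overlapped between the groups in which it could be measured. Sirpb1a held 22.8% ± 3.22, Sirpb1b 27.5% ± 0.54 and Sirpb1c 49.8% ± 3.17 of it in NUP98-NSD1 cells, and 20.4% ± 2.10, 28.3% ± 1.27 and 51.3% ± 1.20 in double-transduced cells (SD, n = 3). The ratio of Sirpb1c to Sirpb1b was 1.81 ± 0.12 and 1.81 ± 0.0748, and the groups overlapped. Within double-transduced cells the levels of Sirpb1a and Sirpb1b overlapped between libraries and Sirpb1c stood above both, and the same order held in NUP98-NSD1 cells. These shares, the ratio and the order depend on how shared fragments were divided, which is not known. Sirpa was 2.07 ± 0.70 times the summed Sirpb1 level in NUP98-NSD1 and 2.15 ± 0.67 times in double-transduced cells. These ratios of the inhibitory to the activating receptors overlapped between the groups.

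**Figure D4:**
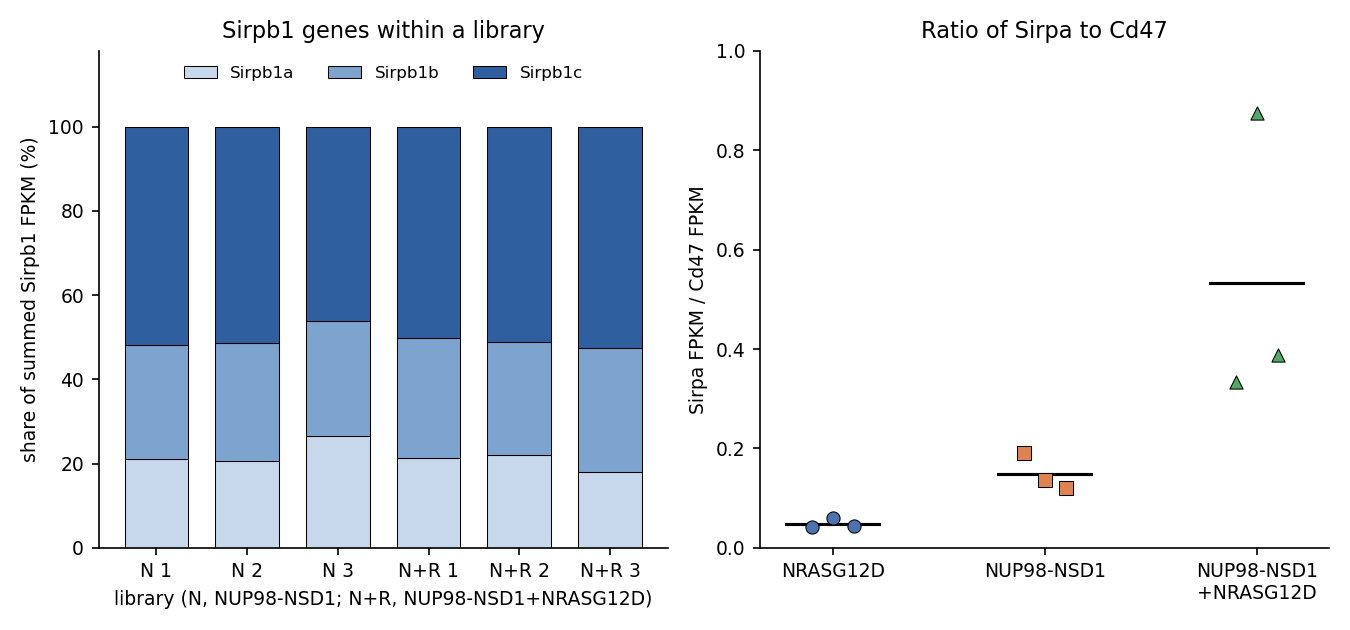
Left, shares of Sirpb1a, Sirpb1b and Sirpb1c in their summed FPKM (%) in each library that carries NUP98-NSD1, which depend on how shared fragments were divided. Right, ratio of Sirpa to Cd47 FPKM in the 9 libraries, with bars at the group means of 0.0489, 0.149 and 0.533.

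Cd47, the ligand of SIRPα, was the most abundant of these genes in every library. It was 309, 328 and 256 FPKM in NRASG12D (298 ± 37.3, SD, n = 3), 335, 338 and 337 FPKM in NUP98-NSD1 (336 ± 1.57) and 336, 325 and 512 FPKM in double-transduced cells (391 ± 105). Replicate 3 of the last group stood above all other libraries, and replicates 1 and 2 of that group lay among those of the other groups. Cd47 passed the test in no comparison. Its difference was 0.18 between NUP98-NSD1 and NRASG12D cells (SE 0.11, limma adjusted p = 0.183), 0.37 between double-transduced and NRASG12D cells (SE 0.23, limma adjusted p = 0.235) and 0.19 between double-transduced and NUP98-NSD1 cells (SE 0.22, limma adjusted p = 0.713). All 3 NUP98-NSD1 libraries were above all NRASG12D libraries, as in 50.7% of tested genes, and the sign of that difference turned when libraries were scaled to each other (-0.05 by quantiles and -0.15 by median ratios). Without double-transduced replicate 3 the difference from NUP98-NSD1 cells was -0.024.

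The ratio of receptor to ligand within a library does not depend on the scaling between libraries. Sirpa was 0.0426, 0.0605 and 0.0436 of Cd47 in NRASG12D libraries (0.0489 ± 0.0101, SD, n = 3). It was 0.192, 0.136 and 0.120 of Cd47 in NUP98-NSD1 libraries (0.149 ± 0.0374), and 0.334, 0.875 and 0.389 in double-transduced libraries (0.533 ± 0.298). The groups did not overlap. The log2 ratio differed by 1.60 between NUP98-NSD1 and NRASG12D, by 3.33 between double-transduced and NRASG12D and by 1.73 between double-transduced and NUP98-NSD1 cells. Each gave p = 0.1 in a two-sided exact permutation test, the smallest that 3 libraries against 3 allow, so this design could not reach the threshold.

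The SIRPβ1-like genes beside the cluster share no 50-base stretch with the Sirpb1 genes. Gm5150 was 0, 0.0354 and 0 FPKM in NRASG12D, 5.25, 3.37 and 3.56 in NUP98-NSD1 and 9.75, 9.87 and 3.87 in double-transduced libraries. Gm9733 was 0.0846, 0 and 0, then 6.59, 4.02 and 6.03, then 17.6, 4.86 and 6.02 FPKM. All NRASG12D values of both were at or under the level of 3 fragments. Like the Sirpb1 genes, both passed the filter only through cells that carry NUP98-NSD1, so their differences from NRASG12D cells are given with no test, 2.30 and 2.65 with NUP98-NSD1 and 3.03 and 3.16 with both oncogenes. Between double-transduced and NUP98-NSD1 cells their libraries overlapped, with differences of 0.73 (SE 0.35, limma adjusted p = 0.2603) and 0.51 (SE 0.44, limma adjusted p = 0.574). Whether they differed from the Sirpb1 genes in this step was not tested. Beyond the cluster, Ythdf3 was 15.9 to 21.5 FPKM in all libraries, and Car2, a carbonic anhydrase gene, was 19.3 to 29.1, 60.7 to 98.6 and 1.86 to 31.6 FPKM in the groups. Next to Cd47, Ift57 rose with NUP98-NSD1 (1.11, limma adjusted p = 0.0108) and Bbx fell by 0.34 (limma adjusted p = 0.0153). The neighbours of Sirpa, F830045P16Rik and Pdyn, stayed under 1 FPKM in every library.

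The adaptor and phosphatases that the receptors use differed by less between groups than the receptors. Tyrobp, which encodes the DAP12 adaptor that SIRPβ1 needs, was already 668, 451 and 672 FPKM in NRASG12D cells that had almost no Sirpb1 RNA. It was 496, 442 and 388 FPKM in NUP98-NSD1 and 629, 835 and 1019 FPKM in double-transduced cells, and passed the test in no comparison (limma adjusted p = 0.0833, 0.199 and 0.0733). Of the other 6 genes listed with it for SIRPβ1 signalling, Syk, Plcg2 and Card9 rose and Hcst and Lcp2 fell with NUP98-NSD1 and with both oncogenes, relative to NRASG12D cells, while Vav1 was not called. These are 3 of 7 called higher and 2 of 7 lower, beside 42.2% and 9.98% of all tested genes with NUP98-NSD1 and 24.2% and 14.1% with both oncogenes. The 5 calls became 3 with NUP98-NSD1 when NRASG12D replicate 1 or 3 or NUP98-NSD1 replicate 1 or 2 was left out, and 3 with both oncogenes without NRASG12D replicate 1 or 3. None of the 7 was called between double-transduced and NUP98-NSD1 cells by limma, 3 had an unadjusted p under 0.05, and 1 was called after median-ratio scaling. Card9, an adaptor downstream of SYK, had the widest difference of the rising genes (1.76, SE 0.41, limma adjusted p = 0.0110 with NUP98-NSD1). Lcp2, the SLP-76 adaptor, was 246 to 264, 121 to 149 and 46.9 to 157 FPKM. When libraries were scaled to each other, Syk lost its call in both comparisons and Plcg2 in that of NUP98-NSD1 with NRASG12D cells. There 1 of the 7 genes was then called higher and 4 lower (Tyrobp, Hcst, Lcp2 and Vav1).

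On the SIRPα side, Ptpn6, which encodes SHP-1, was 72.001 to 79.99, 112 to 163 and 171 to 216 FPKM. It rose by 0.80 with NUP98-NSD1 and by 1.36 with both oncogenes over NRASG12D cells (limma adjusted p = 0.00393 and 0.000787), and was not called between the latter groups (0.56, adjusted p = 0.139). Ptpn11, which encodes SHP-2, was 13.0 to 21.99 FPKM over all libraries and was not called. Of 9 tested genes for SIRPα signalling, 4 rose and 2 fell in each comparison with NRASG12D cells (4 and 4 with NUP98-NSD1 after either scaling), and 2 rose between double-transduced and NUP98-NSD1 cells. Of all tested genes, 42.2% were called higher and 9.98% lower with NUP98-NSD1, and 24.2% and 14.1% with both oncogenes. Between double-transduced and NUP98-NSD1 cells 2.3% were called higher. With NUP98-NSD1 the share of the 9 called higher was thus close to that of all tested genes. Of the 9, 2 were under 1 FPKM in every NRASG12D library, so that the filter fixed their direction. Skap2, an adaptor of the SIRPα pathway, was at 31.99 to 42.5, 64.1 to 102 and 153 to 192 FPKM in the groups. It rose by 1.02 (SE 0.21, limma adjusted p = 0.0335) between double-transduced and NUP98-NSD1 cells. Only 1 of the 9 was called there in 5 of 6 fits without a library, each library apart from double-transduced replicate 1. Fgr, a SRC-family kinase, was at most 0.0843 FPKM in NRASG12D cells and was not called between the other groups (1.19, limma adjusted p = 0.0575). Fyb and Ptk2b, an adaptor and a kinase, fell in both comparisons with NRASG12D cells.

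Among the extracellular partners, Thbs1, a secreted CD47 ligand, varied most. It was 0.00746 to 1.19, 8.34 to 33.6 and 22.98 to 303 FPKM. It was higher than in NRASG12D cells in both groups (3.90 and 6.31), and NUP98-NSD1 and double-transduced libraries overlapped. Thbs1 reached 1 FPKM only in replicate 2 of the NRASG12D libraries and passed the filter only through cells with NUP98-NSD1. These differences are therefore a description and no p is given. Qpctl, the enzyme that forms the CD47 pyroglutamate bound by SIRPα, was 6.66 to 7.87, 8.50 to 9.58 and 9.01 to 14.4 FPKM. It was called higher in both comparisons with NRASG12D cells (limma adjusted p = 0.0483 and 0.0484), lost these calls when libraries were scaled to each other, and in the comparison with NUP98-NSD1 its sign then turned. Of 4 tested genes of this list, 2 were thus called higher in each comparison with NRASG12D cells, Thbs1 with its direction fixed by the filter. Of all tested genes, 42.2% were called higher with NUP98-NSD1, a share close to that of the list, and 24.2% with both oncogenes. Only 1 gene of this list was called with NUP98-NSD1 in the fits without NRASG12D replicate 1 or 2 or NUP98-NSD1 replicate 1 or 2. With both oncogenes the count was 1 in every fit without a library but that without double-transduced replicate 1. The integrin genes Itgav and Itgb3 were tested and not called. Thbs2, Sftpa1 and Sftpd were under 1 FPKM in every library.

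Other receptors that signal through DAP12 were set beside the Sirpb1 genes. Of 9 tested, 5 rose with NUP98-NSD1 and 6 with both oncogenes over NRASG12D cells, with none lower, beside 42.2% and 24.2% of all tested genes called higher. Of the 9, 4 were under 1 FPKM in every NRASG12D library and could enter only by being higher elsewhere (Trem1, Trem2, Trem3 and Cd300ld). Clec5a reached 1 FPKM only in replicate 2 of that group and also passed the filter only through cells with NUP98-NSD1. All 5 calls with NUP98-NSD1 were of these genes, so the filter fixed their direction. The receptors included Clec5a (0 to 2.76, 35.6 to 101 and 179 to 598 FPKM in the groups), Trem2 (0.00858 to 0.408, 17.2 to 24.2 and 41.9 to 242 FPKM) and Trem3 (0.0940 to 0.151, 8.86 to 38.5 and 55.7 to 126 FPKM). Between double-transduced and NUP98-NSD1 cells, Trem1 (2.03), Cd300c2 (1.97) and Cd300ld (2.16) rose (limma adjusted p = 0.0122, 0.0387 and 0.0122, Cd300c2 not after median-ratio scaling). These are 3 of 9, beside 2.3% of all tested genes called higher there. Of the 9, 8 had every double-transduced library above every NUP98-NSD1 library, beside 11.6% of all tested genes. The median difference of the 9 was 1.97. That count of 3 was 7 without double-transduced replicate 1, 2 without replicate 2 or 3 of that group or NUP98-NSD1 replicate 1, and 0 without NUP98-NSD1 replicate 2 or 3.

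Other inhibitory receptors with ITIMs, like SIRPα, were called in both directions. Of 15 tested, 6 rose and 6 fell with NUP98-NSD1, and 7 rose and 2 fell with both oncogenes, over NRASG12D cells (6 and 8, then 6 and 2, after either scaling). With NUP98-NSD1 the share called higher was close to the 42.2% of all tested genes, and with both oncogenes the share called lower was close to their 14.1%. Of all tested genes, 9.98% were called lower with NUP98-NSD1 and 24.2% higher with both oncogenes. Clec4a2, Clec12a and Siglece, 3 of the 15, were under 1 FPKM in every NRASG12D library. Clec12a (0.0169 to 0.614, 17.1 to 61.7 and 92.6 to 144 FPKM), Clec4a2, Pilra, Siglece, Fcgr2b and Ceacam1 were higher in both groups, whereas Lilrb4a (1253 to 1523, 472 to 649 and 155 to 808 FPKM) fell with NUP98-NSD1, and Cd300a and Pecam1 fell in both. Clec4a2 (1.39, limma adjusted p = 0.0424) and Ceacam1 (2.09, limma adjusted p = 0.0487) rose further between double-transduced and NUP98-NSD1 cells. These are 2 of 15, beside 2.3% of all tested genes called higher there. This count of 2 was 0 when any NUP98-NSD1 library was left out, or double-transduced replicate 2, 1 without replicate 3 of the latter group and 7 without its replicate 1. Ceacam1 lost its call after either scaling and Clec4a2 after median-ratio scaling.

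Genes for other signals of phagocytosis were mostly called higher with NUP98-NSD1, but the filter fixed the direction of several of them. Of 10 tested, 8 rose and 1 fell with NUP98-NSD1, and 3 rose with both oncogenes, over NRASG12D cells, beside 42.2%, 9.98% and 24.2% of all tested genes. Of the 10, 4 were under 1 FPKM in every NRASG12D library and could enter only by being higher elsewhere (Lrp1, Mertk, Axl and Slamf7). Cd24a (below) also passed the filter only through cells with NUP98-NSD1. The count with both oncogenes was 8 without double-transduced replicate 2, 6 without its replicate 1, 3 without its replicate 3 and 2 without any single NRASG12D library. With NUP98-NSD1 these counts became 4 and 1 after quantile normalization and 6 and 2 after median-ratio scaling. B2m and H2-K1 lost their calls after either scaling, and B2m turned sign under median-ratio scaling. Lrp1, the receptor for calreticulin on phagocytes, was 0.0135 to 0.219, 2.38 to 2.62 and 6.62 to 23.6 FPKM. It was the gene of this list called between double-transduced and NUP98-NSD1 cells (2.11, SE 0.41, limma adjusted p = 0.0284). This is 1 of 10, beside 2.3% of all tested genes called higher there. No gene of the list was called there in 4 of 6 fits without a library (each NUP98-NSD1 library, and double-transduced replicate 3), or after median-ratio scaling. Cd24a, another "don't eat me" signal, was 0.537 to 1.92, 12.2 to 35.5 and 34.6 to 81.7 FPKM. It was higher than in NRASG12D cells in both groups (3.53 and 4.90). Only replicate 2 of the NRASG12D libraries reached 1 FPKM for Cd24a, so the filter bore on its direction and no p is given. Slamf7 and Mertk were high in double-transduced replicate 2 (50.7 and 13.1 FPKM) and at most 2.49 and 1.82 FPKM in the other libraries of that group, the same library in which Sirpa was highest.

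**Figure D5:**
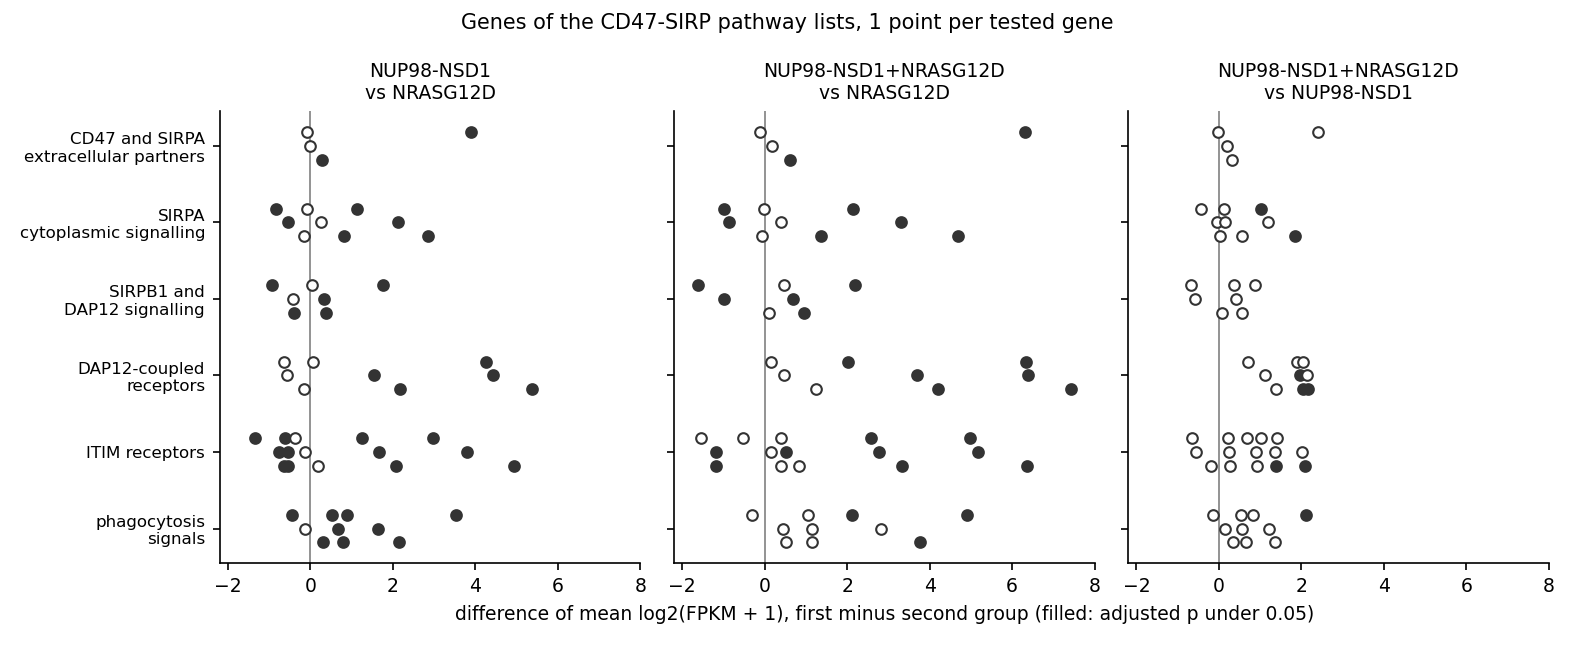
Differences of mean log2(FPKM + 1) for the tested genes of 6 pathway lists in the 3 comparisons, 1 point per gene; filled points passed an adjusted p of 0.05 in limma, also for genes that entered only through cells with NUP98-NSD1. DAP12-coupled receptors have no filled point below 0, and ITIM receptors have filled points on both sides of 0 in the comparisons with NRASG12D. The DAP12-coupled receptors filled for NUP98-NSD1 against NRASG12D all entered only through cells with NUP98-NSD1.

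Over the 9 libraries, genes were ranked by Pearson's r of log2(FPKM + 1) with each SIRP gene and Cd47, as a description in which points share a group. Sirpa was most like Rp2 (0.997), Psap (0.995), which encodes the lysosomal prosaposin, and Lrrc25 (0.995). Sirpb1a was most like March1, Fgr and Ifitm3 (0.988 to 0.996), and Sirpb1b was like Mefv (0.993) and Ifitm3 (0.992). Sirpb1c was most like Ctsh, Tlr2 and Cybb (0.994 each), which encode a lysosomal protease, a receptor for bacterial lipoproteins and a subunit of the phagocyte NADPH oxidase. Cd47 was most like Blvra (0.973), Zw10 (0.958) and Etfrf1 (0.952). Among the genes themselves, the Sirpb1 genes correlated with each other at 0.995 to 0.999, with Sirpa at 0.946 to 0.955 and with Cd47 at 0.554 or more.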

How the data were processed

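RNA of 9 libraries was sequenced as paired-end reads of 50 bp by the authors. The methods state alignment to GRCm38 with GENCODE annotation, with STAR as the main aligner, and quantification with Cufflinks; the submitters' processing notes name STAR 2.7.2a, Cufflinks 2.2.1 and GRCm38.p6. The authors deposited a table of FPKM per gene for each library, without further scaling between libraries. Fragment counts, on which the authors ran DESeq2, were not used here, so the comparisons were made on FPKM.

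Tables of 55330 lines were summed to 55274 identifiers. Values were compared as log2(FPKM + 1), with a pseudocount of 1, which understates changes of low genes. The 13493 genes that reached 1 FPKM in 3 or more of the 9 libraries were kept. Each pair of groups was fitted on its 6 libraries (lmFit and eBayes with trend in limma 3.58.1, R 4.3.3, no block), and p-values were adjusted by Benjamini-Hochberg over all tested genes, threshold 0.05. The procedure was tested on simulated data. For ratios, an exact permutation test (two-sided) was used. Low values fall on steps worth a fragment each, and depth was read from them in 3386 single-transcript genes over 2500 bp; 81.6% to 84.5% of low values lay within 0.1 of a whole step. The level of 3 fragments served as the floor and covers counting error only, since reads carried no molecular identifiers. Coordinates, transcripts and coding sequences were taken from GENCODE M21 (GRCm38), and start-site windows from RefSeq (GRCm38.p6), in which Sirpb1a, Sirpb1b, Sirpb1c, Cd47 and Gm5150 were matched. Software was Python 3.11.15 with scipy 1.17.1, pandas 2.3.3, numpy 2.4.6 and matplotlib 3.10.9.

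The genes, the pathway lists and the cell type markers were chosen with earlier results of these data known. Named are the 5 genes, direct partners, list genes called with a difference of at least 1 on the log2 scale, the 3 genes most like each, nearest neighbours, Nras, Nup98 and Nsd1, and markers; other list genes are named to complete a count, after their values were seen. Some genes that the rule names are not reported here. Alternatives were a pseudocount of 0.1, no filter, quantile and median-ratio scaling, a single fit of all libraries, array weights, a replicate block and leaving out each library.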

Additional observations from a re-analysis of the deposited data

How the results depend on the processing

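Relative to NRASG12D cells, Sirpa kept its direction and call in all 13 alternatives in both comparisons (1.39 to 1.94 with NUP98-NSD1, 3.26 to 3.96 with both oncogenes). Between double-transduced and NUP98-NSD1 cells the direction of Sirpa and Sirpb1a held and the calls did not. With all identifiers tested, Sirpa gave 1.89 (limma adjusted p = 0.234) and Sirpb1a 1.53 (adjusted p = 0.240). Without a library in turn, Sirpa ranged from 1.58 to 2.25 (adjusted p 0.00880 to 0.105) and Sirpb1a from 1.26 to 1.77 (adjusted p 0.0363 to 0.0901). The causes were not tested.

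As descriptions, the differences of Sirpb1b and Sirpb1c from NRASG12D cells became 7.53 and 8.10 with a pseudocount of 0.1 and 4.28 and 5.08 after quantile normalization. Cd47 turned to -0.049 by quantile normalization and -0.15 by median-ratio scaling between NUP98-NSD1 and NRASG12D cells. With array weights it passed the threshold between double-transduced and NRASG12D cells (0.57, limma adjusted p = 0.0493; 0.03 to 0.57 over the alternatives, none of the others called). Against NUP98-NSD1 cells it ranged from -0.024 to 0.30 without a library in turn. The ratio of Sirpa to Cd47 and the summed Sirpb1 level were recomputed without each library in turn, and the sum also after median-ratio scaling, and moved by less than the spread between libraries.

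The count of called genes depended on the setting. Between NUP98-NSD1 and NRASG12D cells it was 7036, against 3428 with all identifiers and 3065 in a single fit of 9 libraries. Between double-transduced and NRASG12D cells it was 5173, against 3010 with all identifiers and 2941 to 6327 without a library in turn. Between double-transduced and NUP98-NSD1 cells it was 1162, against 114 with all identifiers, 2251 in a single fit, 3500 with array weights and 283 to 2509 without a library in turn. Scaling the libraries to each other shifted the median difference of all tested genes from 0.27 to -0.07 or -0.01 and from 0.23 to -0.05 or 0.03 in the comparisons with NRASG12D cells. The share of calls that were higher then fell from 80.9% to 43.2% or 49.3% and from 63.1% to 41.3% or 50.9% (quantile, median-ratio).

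The replicate numbers come from the labels and nothing describes them as pairs. After group means were removed, same-numbered libraries correlated at a mean of -0.0277, 0.0160 and 0.00211 in the 3 comparisons (-0.177 to 0.160 over single pairs). With a replicate block, 6864, 4531 and 801 genes were called, and Sirpb1a lost its call between double-transduced and NUP98-NSD1 cells (1.53, limma adjusted p = 0.0570); no other call of these genes changed.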
